A study of Oryctolagus cuniculus with 24 samples.

Results

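The AP-1 and EGR immediate early factors are transcription factor genes that were named by symbol: the FOS subunits FOS, FOSL1 and FOSL2, the JUN subunits JUN and JUNB, the related factors ATF3 and BATF, and EGR1, EGR2 and EGR3. Of these 10 genes, 8 were found by name among the probes of the array, out of 28875 genes measured, and JUNB and EGR3 were not analysed here. The 8 genes were followed in PBMCs (lymphocytes, monocytes and the other mononuclear blood cells), which were taken from 4 adult female New Zealand White rabbits (rabbits 1, 2, 4 and 5). Cells of each rabbit were mock-stimulated, stimulated with LPS at 1 µg/mL, or stimulated with PMA at 10 ng/mL together with ionomycin at 1 µg/mL, for 4 h (T4) or 24 h (T24). Each of the 24 cultures was hybridised to its own array, so that each of the 6 groups holds the same 4 animals and every difference is between cultures of the same animals. The study asked how LPS and PMA-Ionomycin change the transcriptome of rabbit PBMCs early and late.

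AP-1 is a dimer of basic leucine zipper proteins, in which a FOS subunit needs a JUN subunit as partner, whereas JUN subunits can also pair with each other. ATF3 and BATF belong to the same protein class and join JUN subunits in dimers that can repress as well as activate, while the EGR proteins are zinc finger factors. The genes are known as immediate early genes because resting lymphocytes and monocytes transcribe many of them soon after a signal without making new protein first, often only for a short time. PMA switches on protein kinase C and ionomycin lets calcium into the cell, and the mixture replaces the signals of a lymphocyte antigen receptor, whereas LPS of the bacterial outer membrane acts through Toll-like receptor 4, mainly on monocytes.

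The 8 genes were measured by 13 probes of 60 bases. The sequences below are those on which the identity or the reading of a result rests. FOS and BATF are shown because the files give their probes only an identifier, which was paired with the symbol in the gene list of the study, and no genome position. Of the 5 ATF3 probes the first and the last are shown, because all 5 are shifted copies of the same stretch and so are not independent. Both EGR1 probes are shown because their responses differed in size, the JUN probe because JUN was the member called lower at T24, and the EGR2 probe because only 1 of 4 mock arrays showed EGR2 well above background at T4. Each is written 5′ to 3′ as on the array, and capitals in the ATF3 probes mark the 56 bases that all 5 ATF3 probes share.
FOS probe: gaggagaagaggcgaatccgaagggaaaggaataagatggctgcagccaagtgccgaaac
JUN probe: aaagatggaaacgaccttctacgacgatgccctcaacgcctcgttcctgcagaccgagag
ATF3 probe 1: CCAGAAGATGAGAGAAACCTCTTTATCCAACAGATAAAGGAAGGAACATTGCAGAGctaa
ATF3 probe 5: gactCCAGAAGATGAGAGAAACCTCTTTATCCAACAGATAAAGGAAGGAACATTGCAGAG
BATF probe: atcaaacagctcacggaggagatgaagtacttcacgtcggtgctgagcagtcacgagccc
EGR1 probe 1: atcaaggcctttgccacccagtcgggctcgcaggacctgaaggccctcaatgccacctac
EGR1 probe 2: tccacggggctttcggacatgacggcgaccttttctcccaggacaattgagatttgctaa
EGR2 probe: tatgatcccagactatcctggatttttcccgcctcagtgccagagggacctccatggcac

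On oryCun2, the genome build of the file headers, the JUN probe lies at chr13:107997091-107997150 on the plus strand, EGR2 at chr18:23385621-23385680 on the plus strand, and the EGR1 probes at chr3:20740541-20740600 and chr3:20741216-20741272 on the plus strand. The 5 ATF3 probes tile chr16:60424032-60424095 on the minus strand in steps of 1 base. FOSL2 lies at chr2:157653479-157653538 on the minus strand, and the FOSL1 probe covers chr1:193697809-193698145 on the minus strand, a genomic span of 337 bases for a probe of 60. No annotation of that build was used here, so that exons and untranslated regions are not given. The FOS and BATF probes were each spotted 3 times on every array and the others had 1 spot. The longest run of bases shared between probes of different members was 10, between FOSL1 and ATF3. Probes were compared only with each other and not with the transcripts of the other members, so that this does not show whether a probe also binds those.

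A level below is the log2 median signal of a gene minus the median log2 signal of all non-control spots of its array, averaged over spots and then over probes, so that 0 is the brightness of the median spot. Levels are compared for 1 gene between samples, never between genes. A gene was called when its adjusted p from limma, with Benjamini-Hochberg adjustment over all 28875 genes, was under 0.05. Between 51.4 and 62.3% of non-control spots were well above background on an array, and no spot of a member was saturated. Arrays lie on 3 slides, each with all 6 groups, and the 27 member results called between groups had the same direction within each of the 3 slides. Over all genes, PMA-Ionomycin gave 3880 calls higher and 2697 lower than mock at T4, against 3708 and 3684 after quantile normalization, and 6387 higher and 3318 lower at T24, against 4980 and 4451. The same change of scaling turned 5111 higher and 2610 lower calls of PMA-Ionomycin against LPS at T4 into 4477 and 4400, and 6821 and 3607 at T24 into 5441 and 4838, while LPS against mock at T4 went from 16 higher and 280 lower to 25 and 89. With the processed signal the lower calls outnumbered the higher ones for PMA-Ionomycin, with 3293 higher and 3710 lower than mock at T4, 4676 and 5425 at T24, 3949 and 6150 against LPS at T4, and 5126 and 5579 against LPS at T24, and LPS against mock at T4 had 2 and 10. Normexp with quantile normalization gave 4930 and 4386 for PMA-Ionomycin against mock at T24, 4429 and 4317 against LPS at T4, 5406 and 4750 against LPS at T24, and 27 and 78 for LPS against mock at T4. The deposited log2 values gave 5336 and 5119, 4562 and 4091, and 5657 and 5365 for these PMA-Ionomycin comparisons in the same order. In mock-stimulated cells, 2140 genes were called higher and 1482 lower at T24 than at T4, against 1698 and 1774 with the processed signal. In these bulk samples fewer cells of a type and less RNA per cell cannot be told apart.

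After 4 h with PMA-Ionomycin, all 8 measured factors were higher than in mock-stimulated PBMCs of the same time, in 4 of 4 rabbits each and with no overlap between the groups. The rises ranged from 2.39-fold for FOSL2 to 11.8-fold for ATF3, with a median log2 difference of 1.95, where the median over all genes was 0.046. All 8 were called higher, beside 13.4% of all genes called higher and 22.8% called in either direction. Of all genes compared, 12.2% had PMA-Ionomycin arrays entirely above the mock arrays at T4. LPS moved none of the 8 past the threshold at either time. At T24, 4 of the 8 were called against mock under PMA-Ionomycin, beside 33.6% of all genes. BATF, FOSL1 and EGR2 were higher and JUN was lower, but the call of FOSL1 was lost under 6 alternatives and that of EGR2 with the processed signal. The PMA-Ionomycin difference was called lower at T24 than at T4 for 7 of the 8, beside 8.17% of all genes called lower and 22.5% in either direction, and for 5 with the processed signal, where FOS and FOSL1 were lost. BATF was the gene for which no such change was called.

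**Figure D1:**
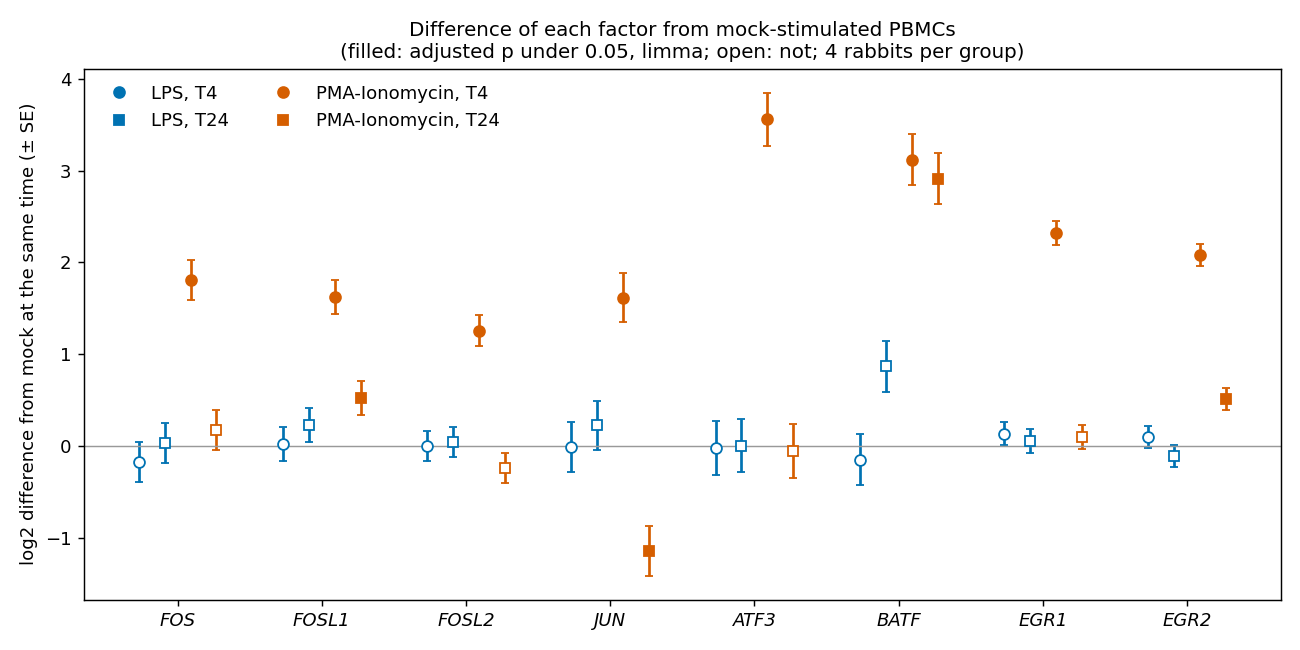
Log2 difference of each of the 8 factors from mock-stimulated PBMCs of the same time (vertical axis, ± SE from limma, 4 rabbits per group), with LPS in blue, PMA-Ionomycin in orange, circles for T4 and squares for T24, and filled symbols for an adjusted p under 0.05. All 8 PMA-Ionomycin circles lie between 1.26 and 3.56, every LPS symbol is open, and at T24 the orange squares are near 0 except for BATF, FOSL1, EGR2 and, below 0, JUN.

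FOS, the founding FOS subunit, was measured in rabbits 1, 2, 4 and 5 at 0.67, 0.29, 0.57 and 0.013 in mock-stimulated cells at T4 and at 2.62, 2.28, 2.17 and 1.72 with PMA-Ionomycin. Every PMA-Ionomycin value lay above every mock value, and rabbit 5 was the lowest of both groups. The log2 difference was 1.81 ± 0.22 (SE, 3.51-fold, limma adjusted p = 1.05e-06). With LPS the T4 levels were 0.49, 0.60, 0.15 and -0.40, within the reach of the mock values except for rabbit 5, which was lower. At T24 the levels were -0.52, -0.72, -0.46 and -0.93 in mock, -0.66, -0.36, -0.32 and -1.15 with LPS and -0.36, -0.39, -0.66 and -0.53 with PMA-Ionomycin. All T24 groups overlapped, and the probe was well above background there on only 1, 2 and 2 of the 4 arrays, so that a level at T24 is close to the limit of the array. The PMA-Ionomycin difference at T24 was 0.17 ± 0.22 (adjusted p = 0.674, limma), and its change from T4 to T24 was -1.64 ± 0.31 (adjusted p = 0.000304). With the background-subtracted processed signal that change was -1.91 with an adjusted p of 0.0714 and was not called. In the order of mean levels PMA-Ionomycin at T4 stood alone at the top, and each of the following neighbours overlapped with the next (mock T4, LPS T4, PMA-Ionomycin T24, LPS T24, mock T24).

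FOSL1, also called FRA1, a FOS-related subunit without the strong activation domain of FOS, had T4 levels of -0.45, -0.30, -0.24 and -0.67 in mock and 1.09, 1.56, 1.47 and 0.73 with PMA-Ionomycin. The groups were separate, with rabbit 5 again lowest in both. The difference was 1.63 ± 0.19 (SE, 3.09-fold, adjusted p = 4.86e-07 by limma), and 3.07 with the processed signal. In mock only 2 of 4 arrays were well above background. LPS at T4 gave -0.22, 0, -0.39 and -0.96, again well above background on 2 arrays and overlapping with mock. At T24 the levels were -0.95, -1.23, -0.82 and -1.29 in mock and -0.77, -0.87, -0.79 and -0.96 with LPS, where no array was well above background, and they were -0.52, -0.48, -0.81 and -0.39 with PMA-Ionomycin, where 1 array was. The measured difference at T24 was 0.53 ± 0.19 (adjusted p = 0.0307, limma), between groups of which the lower was not well above background on any array and the higher on 1 of 4, so that its size is poorly set. With the processed signal it was 1.76 (adjusted p = 0.00529, limma), and with normexp it was 0.29 and not called (adjusted p = 0.183). The call was also lost without rabbit 1, 2 or 5 (adjusted p from 0.0581 to 0.141) and under quantile normalization (0.0576). The PMA-Ionomycin difference fell from T4 to T24 by 1.10 on the log2 scale (SE 0.26, adjusted p = 0.00294), a call lost without rabbit 4 (adjusted p = 0.0627) and with the processed signal (adjusted p = 0.19). PMA-Ionomycin at T4 was above all other groups, and every lower neighbour in the order of means overlapped with the next.

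FOSL2, also called FRA2, another FOS-related subunit, was well above background on all 24 arrays. Its T4 levels were 0.66, 0.70, 0.72 and 0.25 in mock and 1.86, 1.77, 2.14 and 1.60 with PMA-Ionomycin, again without overlap. The difference of 1.26 ± 0.16 (SE, 2.39-fold, adjusted p = 3.08e-06, limma) was the smallest of the 8. With LPS the levels were 0.64, 0.84, 0.34 and 0.51 at T4 and 0.60, 0.75, 0.81 and 0.33 at T24. At T24 mock stood at 0.70, 0.91, 0.63 and 0.075 and PMA-Ionomycin at 0.23, 0.33, 0.35 and 0.47. The 4 PMA-Ionomycin values at T24 were close together and lay below 3 of the 4 mock values, with rabbit 5 as the exception (-0.24 ± 0.16, adjusted p = 0.336). Without rabbit 5 the lower level at T24 passed the threshold (adjusted p = 0.0211, limma). The response to PMA-Ionomycin fell from T4 to T24 by 1.49 on the log2 scale (SE 0.23, adjusted p = 3.45e-05). The 5 groups other than PMA-Ionomycin at T4 overlapped from neighbour to neighbour.

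JUN, the partner that FOS subunits need and the only JUN subunit measured here, rose in mock-stimulated cells with time. At T4 its levels were 2.12, 2.29, 2.02 and 2.47 in mock and 4.26, 3.95, 4.02 and 3.14 with PMA-Ionomycin, a rise of 1.62 ± 0.27 (SE, 3.07-fold, adjusted p = 6.84e-05, limma). The rise was smallest in rabbit 5 (0.67) and reached 2.14 in the rabbit with the largest. At T24 the mock levels were 4.45, 4.18, 3.88 and 3.49, all above the mock levels at T4, whereas PMA-Ionomycin gave 2.91, 2.94, 2.85 and 2.74, a narrow range below every mock value of that time. JUN was thus lower with PMA-Ionomycin than in mock at T24, with a difference of -1.14 ± 0.27 (2.21-fold lower, adjusted p = 0.00154, limma), although its level at T24 was still above every mock level at T4. In the mock cells alone the T24 level exceeded the T4 level by 1.78 ± 0.27 (3.43-fold, adjusted p = 5.32e-05), so that the fall against mock stands beside a mock level that had itself risen. The interaction of PMA-Ionomycin and time was -2.76 ± 0.38 (adjusted p = 7.65e-06). LPS levels, 2.40, 2.76, 1.35 and 2.34 at T4 and 4.22, 4.75, 4.24 and 3.69 at T24, overlapped with mock at both times. LPS T24, mock T24 and PMA-Ionomycin T4 were the 3 highest groups and overlapped with one another in that order. PMA-Ionomycin T24 was separate from both its neighbours in the order of means, and mock T4 and LPS T4 overlapped at the bottom. The highest LPS T4 value (2.76) still lay above the lowest PMA-Ionomycin T24 value (2.74).

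ATF3, a factor that is switched on by many kinds of stress and often acts as a repressor of cytokine genes, showed the largest rise of the 8 at T4. This ranking uses EGR1 averaged over its probes, of which probe 2 alone rose by 3.57. ATF3 levels were 0.65, 0.93, 0.48 and 0.996 in mock and 4.38, 4.12, 5.03 and 3.76 with PMA-Ionomycin, a difference of 3.56 ± 0.29 (SE, 11.8-fold, adjusted p = 3.8e-09, limma). Among rabbits the rise ran from 2.77 to 4.55. With LPS at T4 the values were 1.47, 0.86, 0.26 and 0.40, rabbit 1 being higher and the others lower than their own mock values. The T24 values of 0.54, 0.92, 1.17 and 2.12 in mock, 1.56, 1.17, 0.82 and 1.23 with LPS and 1.17, 1.03, 1.29 and 1.04 with PMA-Ionomycin overlapped in all pairs, and rabbit 5 in mock was the highest of them. The PMA-Ionomycin difference at T24 was not called (-0.055 ± 0.29, adjusted p = 0.944), and the interaction with time was -3.61 ± 0.41 (adjusted p = 5.9e-07, limma), the largest in size of the 8. The 5 overlapping probes gave T4 rises between 3.49 and 3.61. In the order of means PMA-Ionomycin T4 stood alone, and the 3 groups at T24 overlapped with one another. The means of mock T4 and LPS T4 were the lowest and these groups overlapped, but LPS T4 values (0.26 to 1.47) also reached into those of T24.

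BATF, a factor that works with JUN subunits and with IRF4 in activated T and B cells, had the highest PMA-Ionomycin difference of the members called at T24, also with the processed signal (2.75). At T4 the levels were 2.97, 2.66, 2.52 and 3.11 in mock and 5.76, 5.25, 6.23 and 6.51 with PMA-Ionomycin (3.12 ± 0.28, SE, 8.7-fold, adjusted p = 1.48e-08, limma). At T24 they were 2.67, 2.33, 1.99 and 2.52 in mock and 5.35, 4.94, 5.31 and 5.57 with PMA-Ionomycin (2.91 ± 0.28, 7.53-fold, adjusted p = 1.24e-08). Both times the groups were far apart in every rabbit, and the difference changed by -0.21 ± 0.40 from T4 to T24 (adjusted p = 0.839, limma), which did not pass the threshold. LPS gave 3.27, 2.87, 1.63 and 2.88 at T4, where rabbit 4 was lowest, and 3.15, 3.56, 2.995 and 3.29 at T24. At T24 every LPS value was above every mock value, with a difference of 0.87 ± 0.28 (1.83-fold) and an adjusted p of 0.166, which was not called. With the rabbit as a block, the adjusted p was 0.0673, and over all alternatives it ran from 0.0673 to 0.593. The LPS difference was 1.02 ± 0.40 larger at T24 than at T4 (adjusted p = 0.19, limma), again not called. PMA-Ionomycin at T4 and at T24 overlapped with each other at the top of the order, separate from LPS T24, below which all neighbours overlapped.

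EGR1, a zinc finger factor that growth factors and antigen receptors switch on, and EGR2, a related factor that restrains T cell responses, had the smallest errors of the 8. EGR1 levels at T4 were 0.45, 0.15, 0.10 and 0.23 in mock and 2.43, 2.67, 2.64 and 2.49 with PMA-Ionomycin, a difference of 2.33 ± 0.13 (SE, 5.01-fold, adjusted p = 7.69e-12, limma). Its probes agreed in direction but not in size. Probe 1 rose by 1.09 ± 0.14 and probe 2, which lies further along the plus strand, by 3.57 ± 0.17, so that the averaged value lies between 2 unequal readings. Probe 2 was well above background on all 24 arrays and probe 1 on 2 to 4 arrays per group. With LPS at T4 the levels of EGR1 were 0.51, 0.72, 0.22 and 0.028, overlapping with mock. At T24 they were -0.47, -0.12, -0.17 and -0.33 in mock, -0.27, -0.11, -0.15 and -0.33 with LPS and -0.16, -0.29, -0.19 and -0.049 with PMA-Ionomycin, and the groups could not be separated. The PMA-Ionomycin difference was 0.099 ± 0.13 at T24 (adjusted p = 0.686), and the interaction with time was -2.23 ± 0.18 (adjusted p = 4.2e-09, limma). In the order of mean levels PMA-Ionomycin at T4 stood alone, LPS T4 and mock T4 overlapped, and the 3 groups at T24 lay below them and overlapped with one another.

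EGR2 levels at T4 were -0.50, -0.30, -0.38 and -0.62 in mock, where 1 of 4 arrays was well above background, and 1.49, 1.70, 1.86 and 1.46 with PMA-Ionomycin, where all 4 were. The difference was 2.08 ± 0.12 (SE, 4.22-fold, adjusted p = 1.12e-11, limma), and 3.40 with the processed signal. LPS at T4 gave -0.23, -0.36, -0.36 and -0.46, again with 1 array well above background. At T24 the levels were -0.23, -0.23, -0.065 and -0.46 in mock, -0.34, -0.40, -0.082 and -0.59 with LPS and 0.23, 0.34, 0.23 and 0.26 with PMA-Ionomycin. All 4 PMA-Ionomycin values exceeded all mock and LPS values of that time, and the difference from mock of 0.51 ± 0.12 (1.43-fold, adjusted p = 0.0013, limma) was called. With the processed signal it was 0.75, with an adjusted p of 0.0675. The response fell from T4 to T24 by 1.57 on the log2 scale (SE 0.17, adjusted p = 2.26e-07). The order of means was PMA-Ionomycin T4, then PMA-Ionomycin T24, each separate from its lower neighbour, then the 4 mock and LPS groups, which overlapped.

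**Figure D2:**
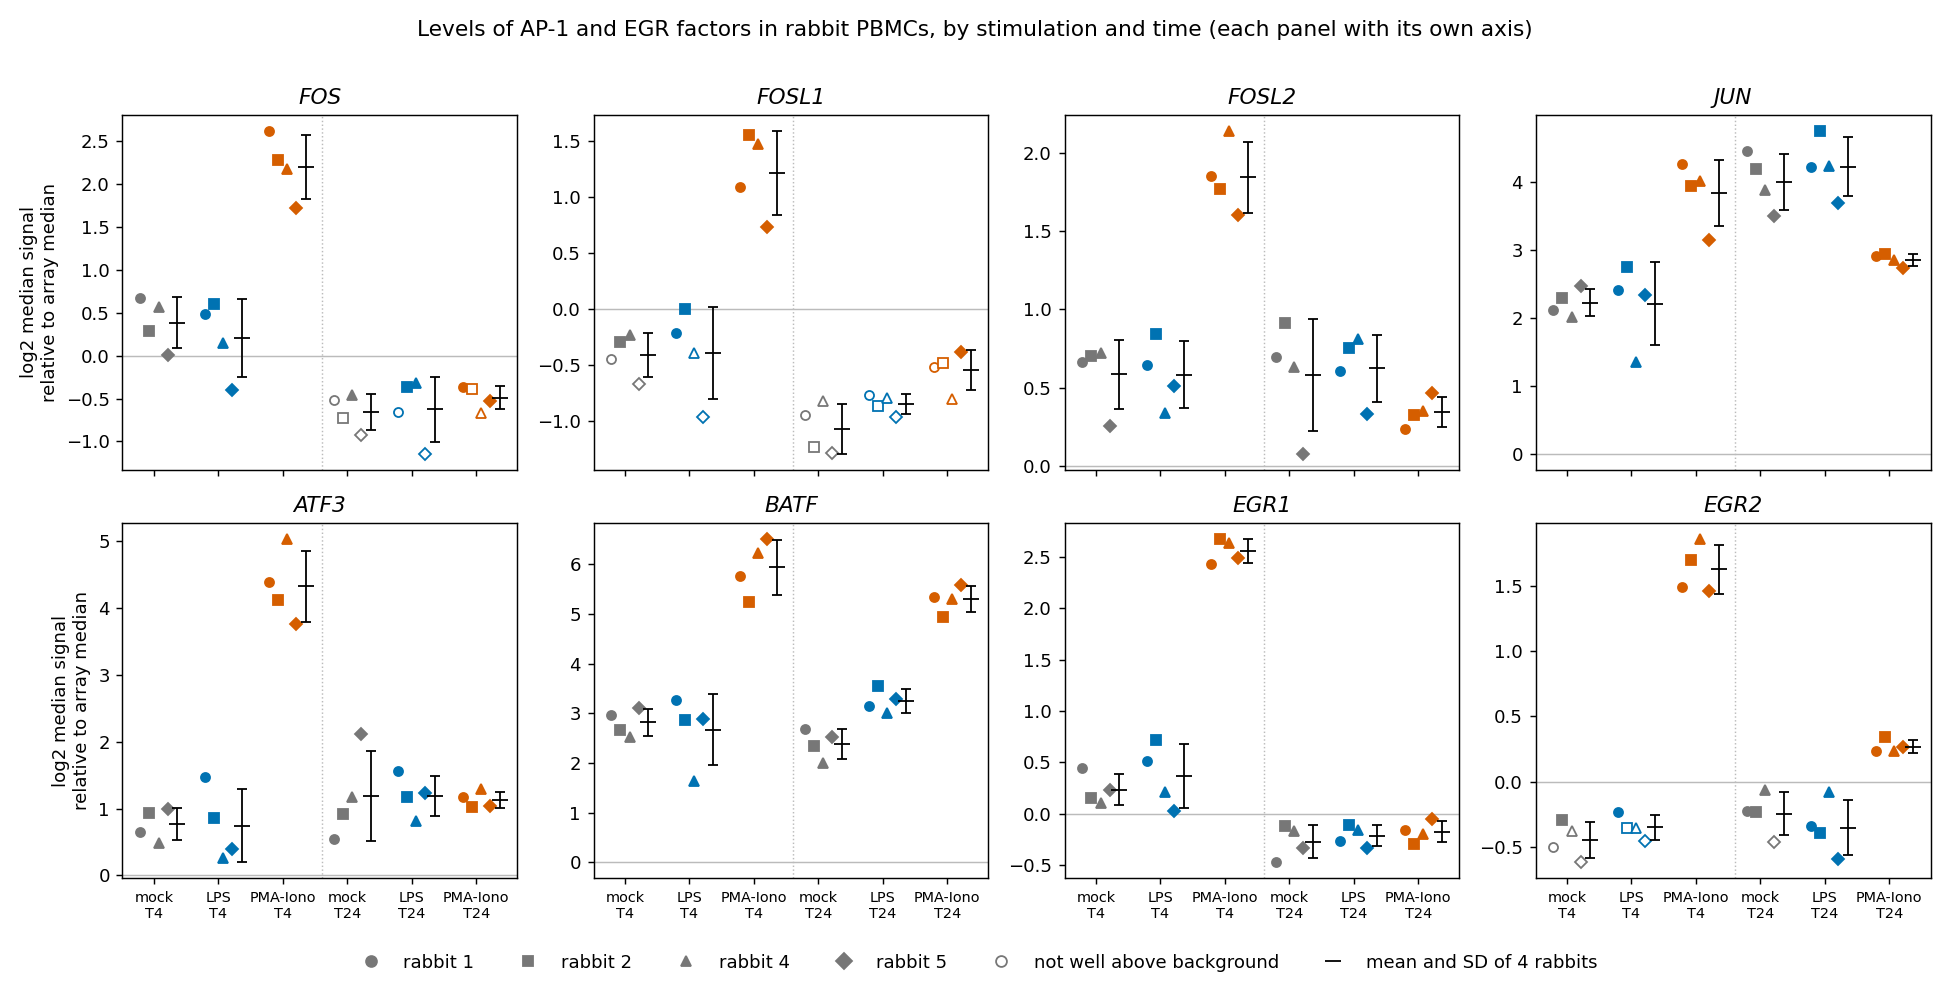
Level of each factor on every array (vertical axis, log2 median signal minus the array median, each panel with its own range), by stimulation and time along the horizontal axis, with a symbol for each rabbit, open symbols where no probe of the gene was well above background, and the mean with its SD over 4 rabbits in black. The PMA-Ionomycin T4 points stand clear of mock and LPS T4 in all 8 panels, BATF stays high with PMA-Ionomycin at T24 (4.94 to 5.57), and JUN is higher in mock at T24 (3.49 to 4.45) than at T4 (2.02 to 2.47).

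**Figure D3:**
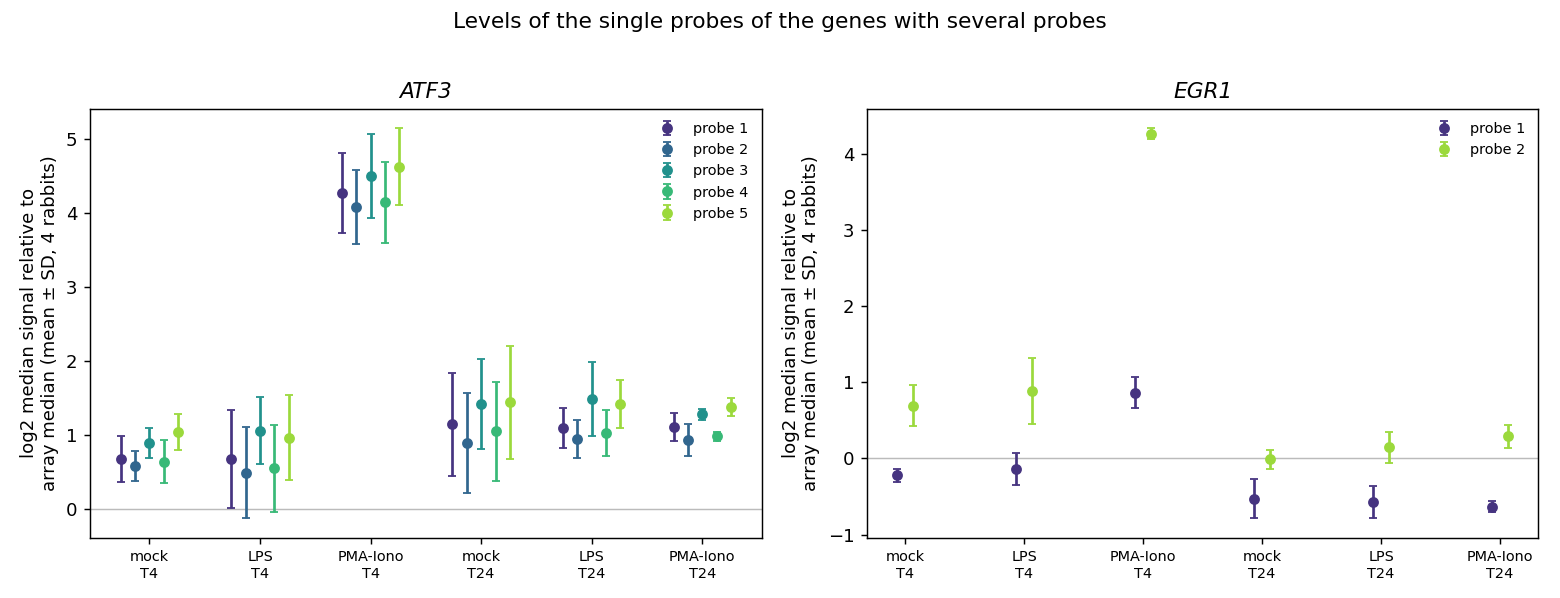
Level of each single probe of ATF3 (left) and EGR1 (right) in the 6 groups (horizontal axis), as the mean and SD over 4 rabbits of the log2 median signal minus the array median (vertical axis). The 5 ATF3 probes changed together, whereas from mock to PMA-Ionomycin at T4 EGR1 probe 1 rose by 1.09 and probe 2 by 3.57.

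At T24 the PMA-Ionomycin differences parted by gene. BATF, FOSL1 and EGR2 were called higher and JUN lower, which is 4 of 8 members beside 33.6% of all genes called (22.1% higher and 11.5% lower). The median log2 difference of the 8 was 0.13, where that over all genes was 0.031. FOS, FOSL2, ATF3 and EGR1 had differences between -0.24 and 0.17 and were not called. The change of the PMA-Ionomycin difference from T4 to T24 was called for 7 of 8 members, all downward, beside 8.17% of all genes called downward and 22.5% in either direction. Its size ran from -1.10 for FOSL1 to -3.61 for ATF3 on the log2 scale, and each of the 7 was negative in 4 of 4 rabbits. The FOSL1 value is poorly set, since at T24 no mock array and 1 PMA-Ionomycin array showed it well above background. With the processed signal FOS and FOSL1 lost this call, and FOSL1 also lost it without rabbit 4. For FOS, FOSL2, ATF3 and EGR1 a rise at T4 was thus followed by values at T24 that were not called against mock, and for JUN by a fall. For FOSL1 and EGR2 it was followed by smaller rises, whose calls were not kept under every alternative.

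In mock-stimulated cells, 4 of the 8 factors differed between T24 and T4 with no stimulus added. JUN was 3.43-fold higher at T24, as given above. FOS was lower by 1.04 ± 0.22 on the log2 scale (2.06-fold, adjusted p = 0.00168, limma), a fall that came to -2.52 with the processed signal. FOSL1, which was well above background on 2 of 4 mock arrays at T4 and on none at T24, had a difference of -0.66 ± 0.19 (adjusted p = 0.0183, limma), which with normexp was -0.34 and not called. EGR1 was 1.42-fold lower (-0.51 ± 0.13, adjusted p = 0.00961, limma), and of its probes only probe 2 was called on its own. These 4 calls, 1 higher and 3 lower, stand beside 12.5% of all genes called (7.41% higher and 5.13% lower), and all 4 differences had the same sign in 4 of 4 rabbits. Without rabbit 1 only 2 of them were called, the calls of FOSL1 (adjusted p = 0.0947) and EGR1 (adjusted p = 0.204) being lost, and FOSL1 was also lost without rabbit 2 or 4. FOSL2, ATF3, BATF and EGR2 were not called, with differences of -0.0053 ± 0.16, 0.42 ± 0.29, -0.44 ± 0.28 and 0.20 ± 0.12.

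With LPS at 1 µg/mL none of the 8 factors passed the threshold at T4 or T24. No time before 4 h was sampled, so that a rise that had ended by then would not be seen. At T4, 0 of 8 were called, also 0 at an unadjusted p under 0.05, and the differences ran from -0.18 (FOS) to 0.14 (EGR1) with SEs of 0.12 to 0.29. At T24, 0 of 8 were called by limma and 1, BATF, had an unadjusted p under 0.05, while the other 7 had differences from -0.11 (EGR2) to 0.22 (JUN). The share of genes called over the whole array was 1.03% for T4 and 1.23% for T24. These shares moved with the rabbits used, since the 296 genes called at T4 became 119 without rabbit 1, 0 without rabbit 2 or 4, 101 without rabbit 5 and 1226 with the rabbit as a block, and the 354 at T24 became 110 without rabbit 2, 86 without rabbit 4, 613 without rabbit 5 and 753 with the block, while 0 of the 8 members were called under each of these. BATF was the only member whose LPS and mock values at T24 did not overlap, as was the case upward for 2.07% of all genes. The change of the LPS difference from T4 to T24 was called for 0 of 8 (1 at an unadjusted p under 0.05), beside 1.94% of all genes. That share moved too, since its 560 genes became 400 without rabbit 1, 7 without rabbit 2, 31 without rabbit 4, 183 without rabbit 5 and 1660 with the rabbit as a block. In data simulated with the spread of these arrays, 81% of genes given a log2 change of 1 for LPS at T4, and 83% at T24, were called. That share is over genes of all spreads and was not computed for the members. A change of 1 or less in a member could have been missed at this number of rabbits. The SEs of the members were largest for ATF3 (0.29), BATF (0.28) and JUN (0.27).

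PMA-Ionomycin and LPS were also compared directly. At T4 all 8 factors were higher with PMA-Ionomycin, by 2.4-fold (FOSL2) to 11.9-fold (ATF3), with the highest adjusted p at 5.39e-05 for JUN (limma), beside 17.7% of all genes called higher and 26.7% in either direction. At T24, 3 of 8 were called, beside 36.1% of all genes (23.6% higher and 12.5% lower). BATF was 4.12-fold higher with PMA-Ionomycin (2.04 ± 0.28, adjusted p = 2.23e-06), EGR2 1.54-fold higher (0.62 ± 0.12, adjusted p = 0.000158) and JUN 2.58-fold lower (-1.37 ± 0.27, adjusted p = 0.000219, limma). FOSL1, which no LPS array at T24 showed well above background, was not called (0.30 ± 0.19, adjusted p = 0.247). FOSL2 was lower by 0.28 and not called (adjusted p = 0.219), and passed the threshold with the processed signal, with the deposited log2 values and without rabbit 5. The comparisons with mock and with LPS share the PMA-Ionomycin arrays, so that they are not separate evidence.

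Some genes followed the members closely across the 24 arrays. Among 6833 genes with a symbol and with all 4 arrays of some group well above background, those with the highest Pearson correlation to each member, up to 3 a member, are given as a description, since the arrays share 4 rabbits and 3 slides and fall into 6 groups. For FOS they were GPRC5A (r = 0.971), RASSF8 (0.957) and EGR1 (0.954), the last being itself a member. FOSL1 was closest to the amino acid transporter SLC7A1 (0.964), the clock gene CRY1 (0.963) and GPRC5A (0.962). FOSL2 was closest to the Wnt receptor FZD8 (0.933), RNF217 (0.918) and HOMER1 (0.915). JUN, which had the lowest correlations of this kind, had RAB22A (0.896) among its closest genes, and ATP6V1F, a subunit of the lysosomal proton pump (0.892). ATF3 was closest to NEDD9 (0.945), ANKRD28 (0.941) and NFKBID (0.938). BATF was closest to GRWD1 (0.968), YRDC (0.968) and POLR3D, a subunit of RNA polymerase III (0.967). EGR1 was closest to the cytokine LIF (0.98), GPRC5A (0.965) and DDX3X (0.956). EGR2 was closest to the cytokine IL13 (0.98), PDLIM5 (0.976) and the growth factor AREG (0.974). Between members, r ran from 0.0183 (FOS and JUN) to 0.954 (FOS and EGR1), and JUN had no r above 0.411 with any other member.

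The other genes of the pathway were described by 4 lists, whose counts stand beside the 22.8% of all genes that were called with PMA-Ionomycin at T4 and the 33.6% at T24, and the 1.03% and 1.23% with LPS. Of 22 other AP-1 and EGR subunits and partners 12 were measured, of which 4 were called higher and 0 lower with PMA-Ionomycin at T4, with a median log2 difference of 0.22 (all genes 0.046). The largest rises were those of IRF4, the partner of BATF on composite sites (2.07, adjusted p = 1.86e-07, limma), and of the small MAF protein MAFF (2.03, adjusted p = 7.76e-06). At T24, 2 were called higher and 3 lower, with a median of -0.15. ATF4, the factor of the integrated stress response, was higher by 0.86 and IRF4 by 0.57, whereas NAB1, a co-repressor of EGR factors, was lower (-0.81). CREB1, also called lower (-0.47), was picked after its value was seen. None of the 12 was called with LPS at either time. EGR4, another gene of the EGR family and named here outside the rule for named genes, had a difference of 0.026 with PMA-Ionomycin at T4 and was not called (adjusted p = 0.953, limma).

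Of 23 upstream kinases and serum response factors 18 were measured. With PMA-Ionomycin 7 were called higher and 1 lower at T4 (median 0.14), and 2 higher and 3 lower at T24 (median -0.19). The 5 of 18 called at T24 are a smaller share than that over all genes. At T4 the largest rises were those of MAP2K3, a kinase that activates p38 (1.25, adjusted p = 0.000619, limma), and of the ERK-dependent kinase RPS6KA3 (1.16, adjusted p = 0.00701), while RPS6KA1, a close relative of the latter, was lower (-0.58). At T24 MAP2K3 was higher by 1.55 and MAP2K4 by 0.43, whereas MAP3K8, a kinase upstream of ERK, was lower (-1.81, adjusted p = 7.52e-09) and RPS6KA3 was lower too (-0.86). Under LPS 1 gene of the list was called, RPS6KA1 at T4 (-0.79, adjusted p = 0.0417).

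The 22 other immediate early genes, of which 14 were measured, were called often with PMA-Ionomycin, as the members were. At T4, PMA-Ionomycin gave 11 calls higher and 1 lower (median 1.35). The nuclear receptor NR4A2 rose by 4.30 (adjusted p = 7.58e-12, limma) and the kinase SGK1 by 3.81 (adjusted p = 4.97e-13), and the antiproliferative gene BTG1 was the gene called lower (-0.75). At T24, 4 were called higher and 5 lower (median -0.37), with NR4A2 at 2.17 and SGK1 at 1.95 above mock, and BTG1 at -2.08 and BTG2 at -2.38 below it. The change of the PMA-Ionomycin difference from T4 to T24 was called downward for 14 of 14 (median -1.94, all genes -0.02), beside 8.17% of all genes. LPS gave 0 calls at T4 and 1 at T24, the lower level of MYC (-0.92, adjusted p = 0.0114, limma).

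Of 23 genes known as targets of AP-1 or EGR factors, 18 were measured. Like the other lists, this one was chosen with earlier results of these data known, so that its counts are a description. With PMA-Ionomycin 14 were called higher and 1 lower at T4 (median 2.23), and 12 higher and 0 lower at T24 (median 2.05, all genes 0.031). The cytokine genes CSF2 (7.88, adjusted p = 5.79e-12, limma) and IL13 (at least 137-fold, with no mock array well above background) rose most at T4, and the death ligand TNFSF10 was lower, by at least 2.27-fold. At T24 the largest rises were those of CSF2 (5.92) and IL2 (at least 20.8-fold). Over all genes, 22.1% were called higher at that time. Under LPS none of the 18 was called at T4 and 3 were called higher at T24. These were F3, the tissue factor that starts coagulation (5.63, adjusted p = 0.000833, limma), the cytokine gene IL6 (4.73, adjusted p = 0.000603) and MMP3, which was named after its value was seen (2.62, adjusted p = 0.000254).

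**Figure D4:**
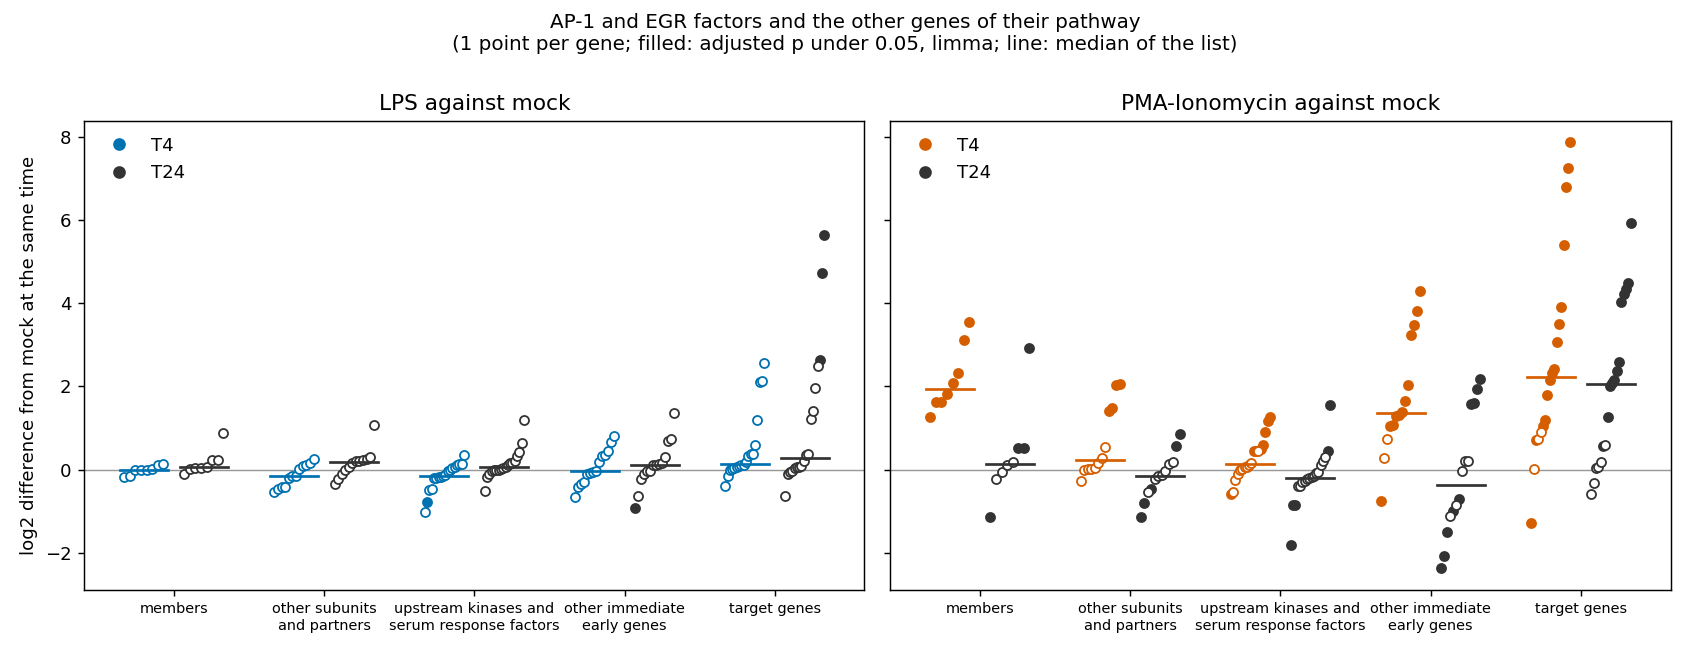
Log2 difference from mock of the same time (vertical axis) of the 8 members and of the measured genes of the 4 lists (horizontal axis), for LPS (left) and PMA-Ionomycin (right), at T4 in colour and at T24 in dark grey, with 1 point per gene, filled for an adjusted p under 0.05 (limma) and a line at the median. With PMA-Ionomycin the median of the members falls from 1.95 to 0.13 and that of the other immediate early genes from 1.35 to -0.37, while that of the target genes goes from 2.23 to 2.05.

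Genes that mark the cell types of blood were examined in the same contrasts, and their counts stand beside the 22.8% of all genes called with PMA-Ionomycin at T4, 33.6% at T24, 1.03% and 1.23% with LPS, and 12.5% in mock between times. The T cell, neutrophil and erythrocyte lists were below this share with PMA-Ionomycin at T4, and the erythrocyte list also at T24. With PMA-Ionomycin, 5 of 12 measured monocyte markers were called lower at T4, and 8 lower and 1 higher at T24, where S100A8, a calcium-binding protein abundant in monocytes and neutrophils, fell by 7.14 on the log2 scale. The mean level over the monocyte list ran from 2.04 to 2.88 in mock and 1.71 to 2.07 with PMA-Ionomycin at T4, and from 2.90 to 4.50 and 1.47 to 2.21 at T24. Of 7 B cell markers 3 were lower at T4 and 4 at T24, with a list mean of 2.63 to 3.51 in mock and 1.21 to 1.74 with PMA-Ionomycin at T4. Of 10 T cell markers 1 was higher and 1 lower at T4, and 1 higher and 3 lower at T24, and the list means overlapped at both times (0.69 to 1.08 in mock and 0.61 to 0.99 with PMA-Ionomycin at T4). Platelet markers (5 measured) gave 4 lower calls at T4 and 2 higher at T24, and neutrophil markers (5 measured) 1 lower at T4 and 3 lower at T24. The 5 erythrocyte markers gave 0 calls at T4 and 1 lower at T24, and of the NK cell list only PRF1, the pore-forming protein of killer cells, was measured, called lower at T4 and higher at T24. Under LPS, 2 monocyte markers were lower at T4, 1 monocyte marker was higher and 1 lower at T24, 2 neutrophil markers were lower at T24, and no other marker was called. In mock-stimulated cells between T4 and T24, 7 monocyte markers and 3 neutrophil markers were higher and 4 platelet markers lower, 1 T cell marker was higher and 2 were lower, 1 B cell marker was higher and 1 erythrocyte marker was lower, in the same cultures in which JUN rose and FOS, FOSL1 and EGR1 fell. On every array at least 9 of 12 monocyte, 4 of 7 B cell and 7 of 10 T cell markers were well above background. The part of these marker differences in the values of the 8 factors was not tested.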

How the data were processed

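Rabbit PBMCs of 6 groups, each with the same 4 rabbits, were measured on 24 single-colour arrays. The authors deposited scanner output of Agilent Feature Extraction 10.7.3.1 (version from the submitters' processing notes), in which the median and mean signals and the local background are spot intensities without correction, while the processed signal is an intensity after background subtraction and removal of a spatial trend. The log2 values they also deposited are median signals on that scale, each array centred on the mean of all its spots.

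From each log2 median signal the array's median over its 61657 spots that are no controls was subtracted, spots flagged as outliers were left out (1 of 72 for FOS and 1 of 72 for BATF), and spots and then probes were averaged. Probes were named by RefSeq accession (FOSL1, FOSL2, JUN, EGR1), gene number (ATF3, EGR2) or the gene list of the study (FOS, BATF), which gave 28875 genes, 9976 of them with a symbol. R 4.3.3, limma 3.58.1 (lmFit and eBayes, a mean for each group, all 24 arrays, as in the study's methods) and the package data.table, version 1.17.8, were used, and Python 3.11.15 with numpy 2.4.6, pandas 2.3.3 and matplotlib 3.10.9 for figures. The precision is set by the number of arrays. A probe was taken as well above background by the flag of the files, and a gene if any of its probes was. The bound of a fold against a group without such an array uses, on each of its arrays, the higher of the gene's own signal and the lowest signal of a probe well above background.

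The members, the lists and the tests were chosen with earlier results of these data known. Named genes are all members, up to 2 called genes with the largest rise and 2 with the largest fall of each pathway list against mock, and the 3 genes most correlated with each member. Of the genes so named, 2 are not reported here. Marker lists are given by counts, apart from S100A8 and PRF1. Alternatives were quantile normalization, the processed signal minus its 75th percentile, normexp (offset 50) with quantile normalization, the deposited log2 values, a filter on dim probes, outlier spots kept, only the arrays compared, a block for the rabbit, a block for the slide, eBayes with trend and robust, single probes, and leaving out each rabbit.

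The rabbit numbers in the labels mark the same animals. As a check of the pairing, array deviations from their group mean were correlated across groups, with a median r of 0.228 over the 60 array pairs of 1 rabbit and -0.0752 over the 180 pairs of 2 rabbits. Tested on simulated data with 28760 genes, the limma steps called 72 to 89% of genes given a log2 change of 1 and 96 to 100% of those given 2 in comparisons of groups, and 51 to 52% and 89 to 93% in the interactions.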

Additional observations from a re-analysis of the deposited data

Results flagged for a closer look

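For 7 of the 8 factors the PMA-Ionomycin difference from mock was not the same at T4 and T24, by a test of the difference itself (limma, adjusted p under 0.05 over all genes), where 22.5% of all genes were called and 8.17% were called lower. With the processed signal the call was lost for FOS (adjusted p = 0.0714, limma) and FOSL1 (0.19). The change from T4 to T24 on the log2 scale was -1.64 for FOS, -1.10 for FOSL1, -1.49 for FOSL2, -2.76 for JUN, -3.61 for ATF3, -2.23 for EGR1 and -1.57 for EGR2, and it was negative in 4 of 4 rabbits for each.

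FOSL2 in mock-stimulated cells at T4 had 1 array far from the other 3. Rabbit 5 was at 0.25, where the next rabbit was at 0.66 and the highest at 0.72, so that the gap was 0.886 of the range. This was 1 of 48 combinations of member and group examined, of which chance flags about 1 in 20.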

How the results depend on the processing

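Of 541 values recomputed for 35 member results (34 called differences and BATF with LPS at T24), 0 changed sign and 17 lost the call, all of FOS, FOSL1, EGR1 or EGR2. The number of members called between mock at T24 and T4 ran from 2 to 4 when each rabbit was left out, and was 2 without rabbit 1. The counts of members called in the other 8 comparisons stayed within 1.5 times their values under every alternative run. With the rabbit as a block, which is the paired analysis, 8 of 8 members were called with PMA-Ionomycin at T4 and 4 at T24, 0 with LPS at T4 or T24, 4 in mock between times and 7 in the interaction of PMA-Ionomycin and time, and no call of a member changed. The call of FOSL1 against mock at T24 was also lost with normexp (adjusted p = 0.183, limma) and with the deposited log2 values (0.0915), and that of FOSL1 in mock between times with quantile normalization (0.0588) and normexp (0.184). With the processed signal, PMA-Ionomycin differences from mock at T4 were 3.07 for FOSL1, 3.40 for EGR2 and 2.97 for EGR1, and that of FOSL1 at T24 was 1.76, each more than 1.5 times its fold on the main scale, as were the falls in mock of FOS (-2.52) and FOSL1 (-2.13), the differences between PMA-Ionomycin and LPS at T4 of FOSL1 (2.90) and EGR2 (3.44), and the interactions with time of FOSL2 (-2.17), ATF3 (-4.32), EGR1 (-3.19) and EGR2 (-2.65). The cause was not tested. That scaling moved the median log2 difference of all genes from 0.046 to -0.16 for PMA-Ionomycin against mock at T4, from 0.031 to -0.26 at T24, and from -0.043 to -0.41 against LPS at T4, while every called member kept its direction. Of 37 uncalled values, 21 changed sign under some alternative, the largest of them 0.24 in size, and 2, both of FOSL2 at T24, were called under one. The limits are lowest signal over background for FOS and FOSL1 at T24 and for EGR2 in mock and LPS at T4, where few or no arrays were well above background.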

Other observations

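The genes that were spotted 3 times per array allow a look at the spread within an array. The median SD of the log2 levels of the 3 FOS spots was 0.101 and the highest 0.416, where the SD between rabbits of a group ran from 0.139 to 0.450, and that of the 3 BATF spots was 0.178 and the highest 0.248, where the SD between rabbits ran from 0.239 to 0.713.

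Between T4 and T24 in mock-stimulated cells, counts of called genes in the other pathway lists stand beside 12.5% of all genes called, 7.41% higher and 5.13% lower (limma). Of the other AP-1 and EGR subunits and partners 2 of 12 were lower, of the other immediate early genes 3 of 14 were lower, of the upstream kinases and serum response factors 3 of 18 were higher and 1 was lower, and of the target genes 1 of 18 was higher and 3 were lower.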
